A study of Mus musculus with 4 samples.

Results

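The genes of MHC class II antigen presentation were examined in the airway epithelium of mouse tracheas that had received transplanted basal cells. The set holds 8 genes, Cd74, H2-Aa, H2-Ab1, H2-Eb1, H2-DMa, H2-DMb1, Ciita and Ctss. They were chosen by symbol, whatever their values, and each matched 1 of the 30907 features of all 4 libraries.

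MHC class II molecules are heterodimers of an alpha and a beta chain that show peptides from endosomes to CD4+ T cells. The chains assemble on the invariant chain, which blocks the peptide groove until endosomal proteases cut it and the DM chaperone exchanges its last fragment for a peptide. Dendritic cells, macrophages and B cells make class II constantly, whereas epithelial cells make it mainly after interferon gamma, through the coactivator encoded by Ciita.

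Each library came from the trachea of 1 of 2 adult wild-type recipient mice, and no group had a second animal. Both mice were injured with 2% polidocanol, a detergent that strips the airway epithelium, and received 6000000 cells into the trachea 5 hours later. The first, whose libraries are labelled 129 X1/S1, received iBCs, basal cells made in culture from embryonic stem cells, and was examined after 192 days. The second, with libraries labelled C57BL/6, received primary BCs, basal cells taken from tissue, and was examined after 69 days. They are called the iBC trachea and the primary BC trachea below. Live (Calcein Blue+) cells were sorted into GFP+ donor-derived and GFP- endogenous cells, called host cells below, so that all 4 groups share the injury and the digestion, and the donor-derived and host cells of a mouse share that recipient. Strain label, cell source and day differ together between the mice and cannot be told apart. The strain is a label of the libraries, and whether it describes the recipient or the donor cells is not given in the sources used here.

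The files held 1421 to 1891 cell barcodes and 21504563 to 26625123 unique molecular identifiers (UMIs, each standing for 1 captured RNA molecule) per library, and 6536 of 6784 barcodes were kept. Cells were assigned to basal-, secretory- and ciliated-gated classes from marker genes that hold no member of the set. These classes had 557 to 990, 256 to 527 and 162 to 350 cells per library. The cells carried the markers of the labelled epithelium. Epcam, an epithelial adhesion gene, had a UMI in 93.58% to 98.83% of kept cells that were not immune-, fibroblast- or endothelial-gated. The EGFP reporter had a UMI in 48.03% of kept donor-derived cells of the iBC trachea and 98.89% of those of the primary BC trachea, against 0.0557% and 2.14% of the matching host cells. At most 1 barcode was shared by any pair of libraries. In the iBC trachea, donor-derived and host cells of each class fell mostly into different clusters. Basal-gated cells of the iBC trachea lay mostly in clusters 3 (424 cells) and 13 (176 cells) when donor-derived and in clusters 6 (443 cells) and 7 (284 cells) when host. Secretory-gated cells lay mostly in cluster 5 against clusters 10 and 11, and ciliated-gated cells in cluster 12 against cluster 8. In the primary BC trachea the 2 libraries shared clusters. Cluster 2 held 251 donor-derived and 261 host secretory-gated cells, and cluster 9 held 156 and 189 ciliated-gated cells. Basal-gated cells there lay mostly in cluster 0 (741 cells) when donor-derived and in cluster 4 (472 cells) when host, with 232 and 71 in cluster 1.

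Of the 8 genes, 5 lie on chromosome 17, in the MHC region of the mouse. By GENCODE vM21 positions on GRCm38 these are H2-DMa (34119541 to 34139101), H2-DMb1 (34153072 to 34160230), H2-Ab1 (34257689 to 34269419), H2-Aa (34282744 to 34287823, minus strand) and H2-Eb1 (34305867 to 34316674). Ciita lies on chromosome 16 (10480059 to 10528418) and Ctss on chromosome 3 (95526786 to 95556403). All 8 are annotated as protein coding.

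The promoters of 4 of them are shown because class II genes are known to share a pair of promoter elements, the X box, bound by the RFX complex, and the Y box, bound by NF-Y, on which CIITA assembles, whereas Ctss lies outside that family. The sequences are those of RefSeq on GRCm38.p6, from 250 bases before the start to 50 after it, in the direction of the gene. They are chr17:34287774-34288073 (minus strand) for H2-Aa, chr17:34305617-34305916 for H2-Eb1, chr17:34152941-34153240 for H2-DMb1 and chr3:95526536-95526835 for Ctss. Capitals mark an X-box-like GNAAC followed within 40 bases by a Y box, TGATTGG, and in Ctss a run like the interferon-stimulated response element (ISRE), GAAA followed after any 2 bases by GAAA.
H2-Aa: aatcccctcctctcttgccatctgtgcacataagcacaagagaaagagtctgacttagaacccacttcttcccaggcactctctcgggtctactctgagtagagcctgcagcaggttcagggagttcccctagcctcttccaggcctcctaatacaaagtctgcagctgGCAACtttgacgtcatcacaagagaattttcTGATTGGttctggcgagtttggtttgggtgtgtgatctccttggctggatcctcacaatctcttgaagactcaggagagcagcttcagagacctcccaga
H2-Eb1: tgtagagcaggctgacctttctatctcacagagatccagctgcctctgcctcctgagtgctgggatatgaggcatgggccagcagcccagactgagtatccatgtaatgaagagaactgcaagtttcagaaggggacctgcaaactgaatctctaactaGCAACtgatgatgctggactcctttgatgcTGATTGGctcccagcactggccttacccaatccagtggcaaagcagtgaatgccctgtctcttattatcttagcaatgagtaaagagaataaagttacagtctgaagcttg
H2-DMb1: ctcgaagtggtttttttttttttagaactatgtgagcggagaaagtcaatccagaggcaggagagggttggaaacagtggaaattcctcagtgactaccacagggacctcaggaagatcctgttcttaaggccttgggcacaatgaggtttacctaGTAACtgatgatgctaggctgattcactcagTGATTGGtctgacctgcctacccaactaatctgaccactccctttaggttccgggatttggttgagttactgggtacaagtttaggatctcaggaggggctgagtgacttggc
Ctss: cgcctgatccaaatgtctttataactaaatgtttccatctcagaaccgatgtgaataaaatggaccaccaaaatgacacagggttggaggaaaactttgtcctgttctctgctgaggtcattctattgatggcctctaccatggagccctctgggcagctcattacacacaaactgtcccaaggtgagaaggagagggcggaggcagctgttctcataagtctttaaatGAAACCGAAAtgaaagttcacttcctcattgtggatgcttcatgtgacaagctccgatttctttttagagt
In H2-Aa and H2-DMb1 26 bases separate the elements, and in H2-Eb1 25 bases. Searched on both strands, the pair occurred in 1.05% of the 32851 promoters of the same length in the table, the Y box alone in 7.82%, a count that includes the pairs, and the ISRE-like run in 3.44%. The letters and the spacing were set with the sequences of these genes in view. Both windows listed for H2-DMa held none of the 3 patterns, which says only that these letters are not in those windows. Promoters were at hand for 5 of the 8 members, and 3 of these members held the pair. Those of H2-Ab1, Ciita and Cd74 were not at hand, so whether they hold it was not examined.

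Levels below are in CPM, the UMIs of a gene per 1000000 UMIs of its class in that library, with exact Poisson 95% intervals, and shares of cells with a UMI carry exact Clopper-Pearson 95% intervals. Both cover counting error only, since each group had 1 library, and no test or p-value is given. A gene counts as measured at 20 CPM or more in either group. It is called higher or lower when the groups differ at least 2-fold and the interval of the ratio excludes 1. In bulk sums of this kind, fewer cells with a gene and less RNA per cell cannot be told apart, which is why shares of cells are given beside the sums.

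Donor-derived epithelium of the iBC trachea carried more class II RNA than host epithelium of the same trachea in each gated class. In basal-gated cells 7 of 7 measured genes of the set were called higher, where 4.46% of all 6482 measured genes were. In secretory-gated cells 6 of 6 were called higher against 8.51% of 5062 genes, and in ciliated-gated cells 6 of 6 against 3.91% of 7156 genes. In ungated cells, which passed no gate or lay in another class's cluster, 6 of 6 were called higher against 4.32% of 6385 genes. Of these, 3, 3, 2 and 1 members were measured only through the donor-derived side, so they could not have been called lower and these counts are a description. They are H2-DMa in each case, H2-DMb1 in the 3 gated classes, Ciita in basal-gated and H2-Eb1 in secretory-gated cells. Of the members at 20 CPM or more in host cells, 4 of 4, 3 of 3, 4 of 4 and 5 of 5 were called higher, where 2.08%, 3.95%, 1.5% and 1.7% of all genes at that level in host cells were. The median log2 ratio of these members was 2.79, 3.06, 3.03 and 2.41, beside 0.1, 0.26, 0.053 and -0.03 over all such genes. None of the measured members was called lower in the 3 gated classes, where 3.49%, 3.69% and 4.86% of all measured genes were. In basal-, secretory- and ciliated-gated cells of the primary BC trachea no member reached 20 CPM in either library.

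**Figure D1:**
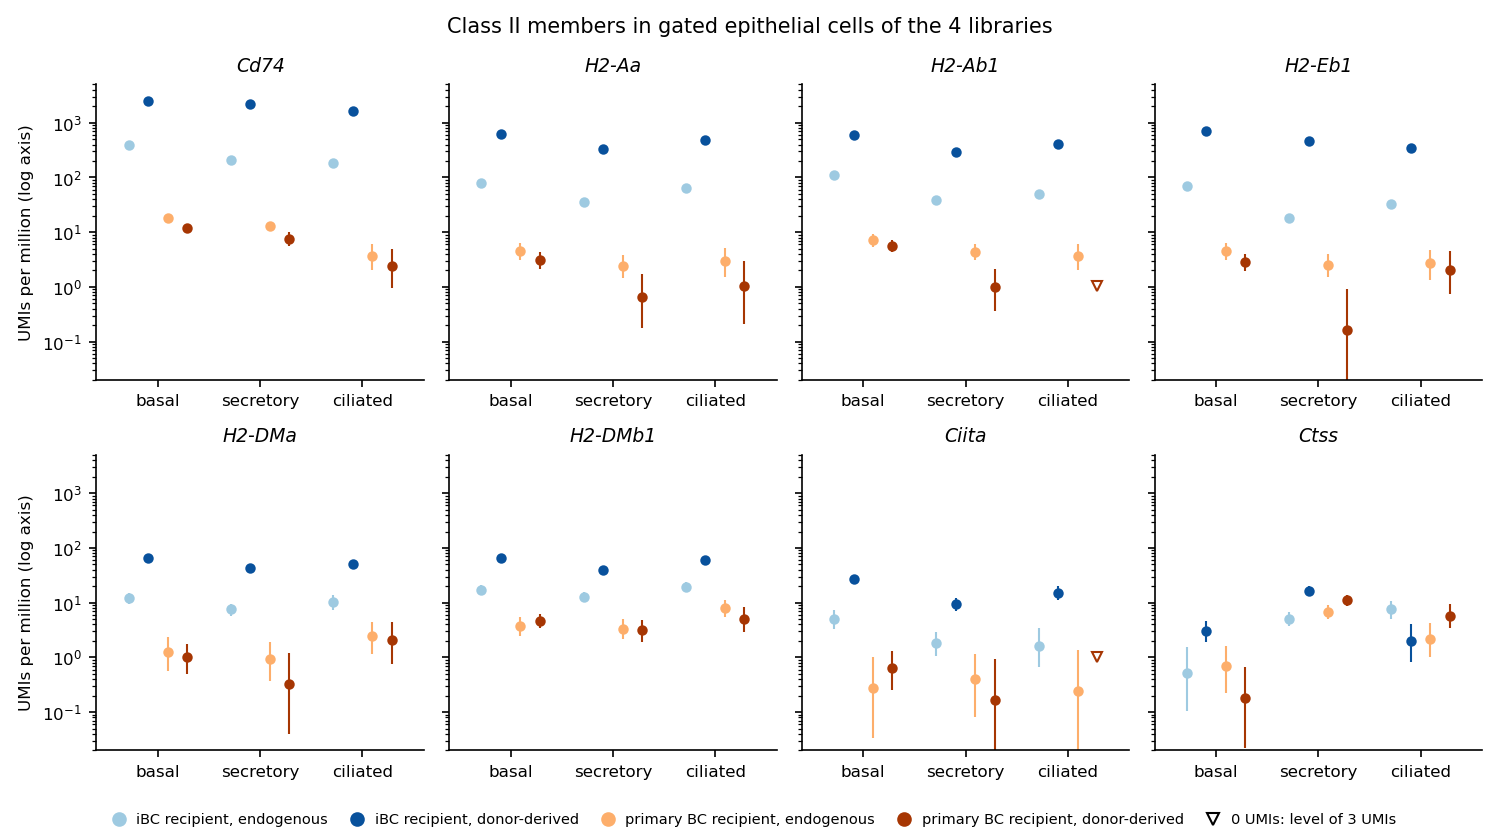
Levels of the 8 genes in CPM (log axis) in basal-, secretory- and ciliated-gated cells of the 4 libraries; points are class sums of 1 library, bars are exact Poisson 95% intervals, and open triangles stand for 0 UMIs at the level of 3 UMIs. For Cd74 to Ciita the donor-derived cells of the iBC trachea (dark blue) lie highest in each class and the primary BC trachea (orange and brown) lowest, which does not hold for Ctss.

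Cd74, on chromosome 18 (60803848 to 60812652), encodes the invariant chain that chaperones class II molecules to the endosome. In basal-gated cells it had 2550 CPM (2513 to 2588) among donor-derived and 387 CPM (371 to 403) in host cells of the iBC trachea, and 11.8 CPM and 18.1 CPM in donor-derived and host cells of the primary BC trachea. The ratio in the iBC trachea was 6.60 (6.31 to 6.90). In secretory-gated cells the 4 levels were 2177, 207, 7.62 and 12.7 CPM in the same order, and the ratio in the iBC trachea was 10.5 (10.03 to 11.1). Ciliated-gated cells had 1662, 185, 2.39 and 3.68 CPM, with a ratio of 8.99 (8.34 to 9.70). The intervals of the iBC trachea's 2 libraries do not overlap in any of the 3 classes, and both lie above those of the primary BC trachea. The share of cells with a Cd74 UMI was 88.8%, 94.1% and 89.0% of donor-derived basal-, secretory- and ciliated-gated cells of the iBC trachea. It was 37.45%, 46.7% and 29.1% of host cells there.

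The alpha and beta chains of the I-A molecule, H2-Aa and H2-Ab1, ran close together. H2-Aa had 617, 331 and 476 CPM in donor-derived basal-, secretory- and ciliated-gated cells of the iBC trachea and 79.9, 35.2 and 63.9 CPM in host ones. The ratios were 7.73 (7.02 to 8.53), 9.40 (8.33 to 10.6) and 7.45 (6.55 to 8.50). H2-Ab1 had 590, 295 and 406 CPM against 112, 39.0 and 49.1 CPM, with ratios of 5.29 (4.87 to 5.76), 7.57 (6.73 to 8.52) and 8.27 (7.15 to 9.61). For both chains, donor-derived secretory-gated cells had the lowest level of the 3 donor-derived classes. H2-Aa in the primary BC trachea stayed between 0.662 and 4.46 CPM over the classes and both libraries, and H2-Ab1 between 0 and 7.10 CPM. The 0 is that of donor-derived ciliated-gated cells, where 3 UMIs would have been 1.02 CPM.

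H2-Eb1, the beta chain of the I-E molecule, had the largest ratio of the set in the basal-, secretory- and ciliated-gated cells of the iBC trachea, though in ciliated-gated cells its interval overlapped those of Cd74, H2-Ab1 and Ciita, and in basal-gated cells that of Ctss, which rests on few UMIs. It had 696, 460 and 352.5 CPM in donor-derived basal-, secretory- and ciliated-gated cells and 71.2, 18.1 and 33.4 CPM in host ones. The ratios were 9.77 (8.83 to 10.8), 25.4 (21.6 to 29.9) and 10.6 (8.87 to 12.7). In secretory-gated cells only 3 of the 5062 measured genes had a larger log2 ratio than its 4.33. The share of cells with a UMI there was 91.4% of donor-derived against 12.7% of host cells, and the median cell had 16887 and 16799 UMIs. Its levels in the primary BC trachea ran from 0.166 to 4.60 CPM. The alpha chain that pairs with it, encoded by H2-Ea, is not reported here, so these values do not show whether the I-E molecule was made.

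H2-DMa and H2-DMb1 encode the DM chaperone, which loads peptides. H2-DMa had 65.6, 42.4 and 51.5 CPM in donor-derived basal-, secretory- and ciliated-gated cells of the iBC trachea and 11.95, 7.52 and 10.3 CPM in host ones, with ratios of 5.49 (4.255 to 7.18), 5.63 (4.28 to 7.504) and 4.98 (3.56 to 7.09). H2-DMb1 had 66.1, 39.0 and 59.8 CPM against 17.2, 12.9 and 19.5 CPM, with ratios of 3.85 (3.09 to 4.84), 3.03 (2.41 to 3.83) and 3.07 (2.37 to 4.005). The interval of H2-DMb1 lies below those of H2-Aa and H2-Eb1 in each class, so its ratio was the smaller beyond counting error. The primary BC trachea had H2-DMa at 0.331 to 2.45 CPM and H2-DMb1 at 3.15 to 8.10 CPM. H2-DMb1 has a near-identical copy, H2-DMb2, and H2-DMa overlaps Brd2 on the other strand. Whether the authors' counting used the strand is not given in the sources used here, so both values are uncertain in that respect. Brd2 itself had 165 CPM among donor-derived and 125.4 CPM in host basal-gated cells.

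Ciita, the coactivator that switches class II transcription on, had 27.0 CPM (23.3 to 31.2) in donor-derived basal-gated cells of the iBC trachea and 5.02 CPM (3.36 to 7.21) in host ones, a ratio of 5.38 (3.63 to 8.26). In secretory- and ciliated-gated cells it did not reach 20 CPM and was not counted as measured. There it had 9.28 and 15.2 CPM in donor-derived against 1.82 and 1.65 CPM in host cells, with ratios of 5.09 (2.88 to 9.52) and 9.27 (4.20 to 24.2). Ciita had 0 to 7 UMIs per class and library of the primary BC trachea. Ciita overlaps Dexi on the other strand, whose level in basal-gated cells was 42.1 CPM in donor-derived and 29.6 CPM in host cells of the iBC trachea.

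Ctss encodes cathepsin S, the protease that trims the invariant chain in dendritic cells, and it shared the pattern only in part. In the iBC trachea its ratio was above 1 in basal- and secretory-gated cells and below 1 in ciliated-gated ones. It reached 20 CPM in none of the basal-, secretory- and ciliated-gated classes. In the iBC trachea it had 3.04, 16.5 and 2.01 CPM in donor-derived basal-, secretory- and ciliated-gated cells against 0.520, 5.13 and 7.52 CPM in host ones. The ratios were 5.84 (1.74 to 30.6, from 21 and 3 UMIs), 3.23 (2.24 to 4.70) and 0.268 (0.0997 to 0.618, from 7 and 32 UMIs). Donor-derived ciliated-gated cells thus had less Ctss than host ones, while Cd74 was 8.99 times higher in the same cells. Of the 3 classes of the primary BC trachea, secretory-gated cells had the most Ctss, with 11.1 CPM in donor-derived and 6.84 CPM in host cells, where Cd74 had 7.62 and 12.7 CPM.

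**Figure D2:**
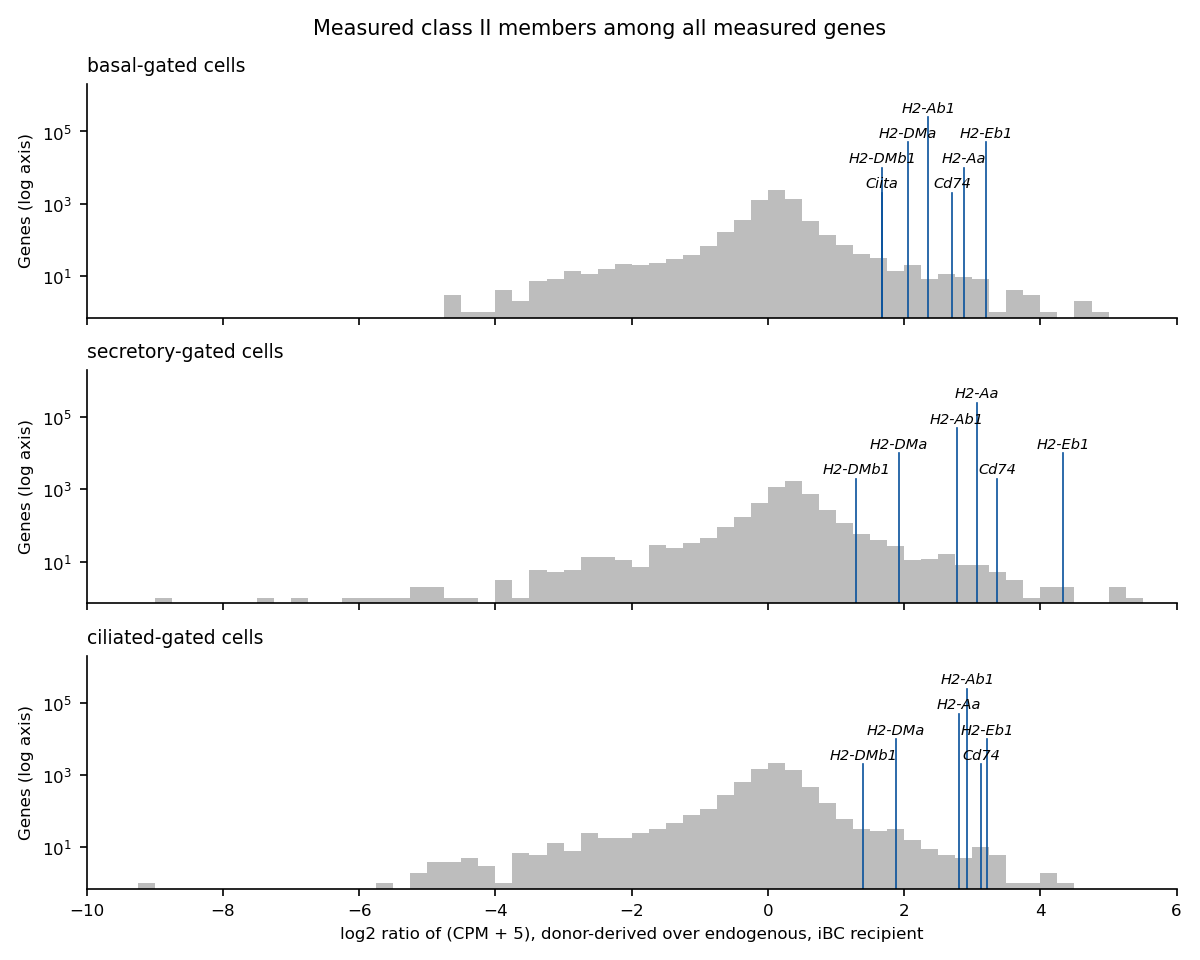
Distribution of log2 ratios (CPM plus a pseudocount of 5) of all measured genes between donor-derived and host cells of the iBC trachea in 3 classes, with the number of genes on a log axis; blue lines mark the measured genes of the set. The marked genes lie between 1.30 and 4.33, to the right of the bulk of genes, whose medians are 0.13, 0.31 and 0.087.

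The members were ranked among all measured genes by the log2 ratio with its pseudocount of 5. In basal-gated cells H2-Eb1 had the largest log2 ratio of the measured members, with 0.201% of measured genes above it, and Ciita (1.68, 1.4% above it) and H2-DMb1 (1.68, 1.36% above it) the smallest. In secretory-gated cells the corresponding genes were H2-Eb1, with 0.0593% above it, and H2-DMb1, with 3.62% above it. In ciliated-gated cells H2-Eb1 had 0.182% and H2-DMb1 1.82% of genes above it. These ranks describe 2 libraries of 1 animal.

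Beyond the sums, single donor-derived cells of the iBC trachea held several members at once. Over Cd74, H2-Aa, H2-Ab1, H2-Eb1, H2-DMa and H2-DMb1, donor-derived basal-, secretory- and ciliated-gated cells had UMIs of 4.07 ± 1.67, 3.82 ± 1.56 and 4.0 ± 1.69 of the 6 genes (SD over cells). Host cells had 1.16 ± 1.56, 1.30 ± 1.54 and 1.04 ± 1.64. To compare cells of different depth, each was thinned at random to 4000 UMIs. Then 50%, 30.4% and 44.1% of donor-derived cells held 4 or more of the 6 genes, against 8.40%, 1.93% and 4.87% of host ones. No UMI of the 6 genes was found in 7.17%, 8.04% and 10.7% of thinned donor-derived cells and in 59.1%, 64.7% and 71.9% of thinned host cells. At least 89.05% of thinned cells of each class and library of the primary BC trachea had none. The chain pair and its chaperone, Cd74 with H2-Aa and H2-Ab1, were found together in 47.4%, 30.95% and 44.4% of thinned donor-derived cells of the iBC trachea and in 9.80%, 2.70% and 5.44% of host ones. Unthinned, the shares were 66.8%, 56.4% and 67.7% against 12.6%, 12.5% and 12.3%.

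**Figure D3:**
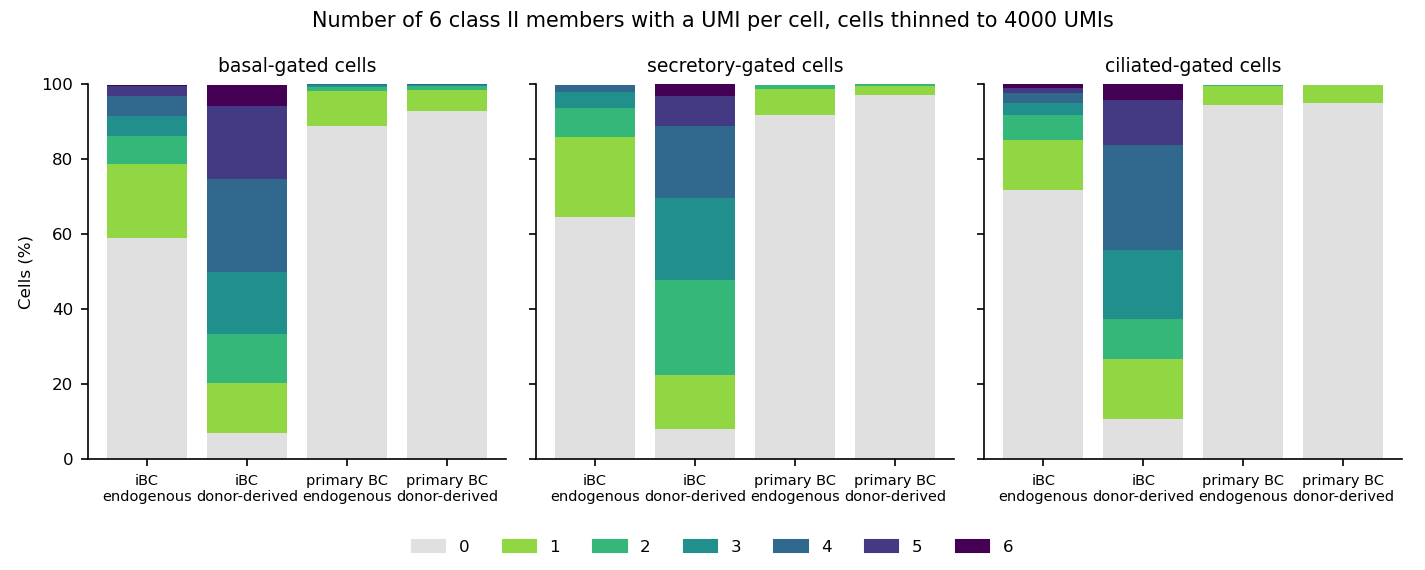
Share of cells (%) by the number of 6 class II genes with a UMI, from 0 (grey) to 6 (darkest), in the 4 libraries and 3 classes after thinning each cell to 4000 UMIs. The grey part is 7.17% to 10.7% of donor-derived cells of the iBC trachea, 59.1% to 71.9% of its host cells and 89.05% to 97.3% of cells of the primary BC trachea.

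In basal-gated cells of the iBC trachea a UMI of H2-Aa was found mostly in cells with one of Cd74. Among thinned host basal-gated cells of the iBC trachea, H2-Aa had a UMI in 39.4% (33.0 to 46.1) of the 226 cells with Cd74 and in 1.84% (0.847 to 3.47) of the 488 cells without it. H2-Ab1 had a UMI in 73.5% (63.6 to 81.9) of the 98 cells with H2-Aa and in 7.96% (5.94 to 10.4) of the 616 others. Among thinned donor-derived basal-gated cells, H2-Aa was found in 71.9% (67.7 to 75.8) of the 505 cells with Cd74 and in 7.34% (3.22 to 13.95) of the 109 without. So in both libraries H2-Aa was concentrated in cells with Cd74.

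In donor-derived basal- and secretory-gated cells H2-Eb1 was found without Cd74 more often than H2-Aa was. In those 109 basal-gated cells without a Cd74 UMI, 49.5% (39.8 to 59.3) had one of H2-Eb1. Of the 50 thinned secretory-gated cells without Cd74, 38.0% (24.65 to 52.8) had H2-Eb1 and 8% (2.22 to 19.2) H2-Aa. In thinned ciliated-gated cells without Cd74 the shares of H2-Eb1 and H2-Aa were 23.2% (13.0 to 36.4) and 17.9% (8.91 to 30.4), whose intervals overlap. In host basal-gated cells without Cd74 only 3.69% (2.20 to 5.77) had H2-Eb1. At full depth, H2-Eb1 without H2-Aa or H2-Ab1 was found in 11.7% of donor-derived basal-gated, 22.8% of secretory-gated, 5.70% of ciliated-gated and 42.6% of the 61 hillock-gated cells, the last being stratified cells marked by Krt13. The host shares were 3.84%, 1.71% and 2.86% in the first 3 classes. The antisense annotation Gm20513 over H2-Eb1 had at most 3 UMIs in any of the 3 epithelial classes.

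The host cells of the iBC trachea were unequal. Their median for the 6 genes together was 0 per 10000 UMIs in basal-gated cells and 0.518 and 0 in secretory- and ciliated-gated cells, while the highest cells reached 115, 78.3 and 116. The 10% of cells with the most class II UMIs held 73.3%, 68.1% and 79.8% of all such UMIs in the 3 classes. Donor-derived cells had medians of 28.3, 19.1 and 19.6 per 10000, and their top 10% held 39.5%, 44.6% and 42.3%. A level of 10 per 10000 was reached by 73.8%, 68.2% and 65.8% of donor-derived and by 15.4%, 7.40% and 8.29% of host cells. Host cells at the upper end overlapped the range of donor-derived ones. In the primary BC trachea, where these UMIs were few, the top 10% held 65.6%, 55.8% and 46.9% in host and 88.1%, 80.8% and 67.6% in donor-derived cells. Such shares can thus be high where UMIs are few, and the part of that in the host cells of the iBC trachea was not tested.

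**Figure D4:**
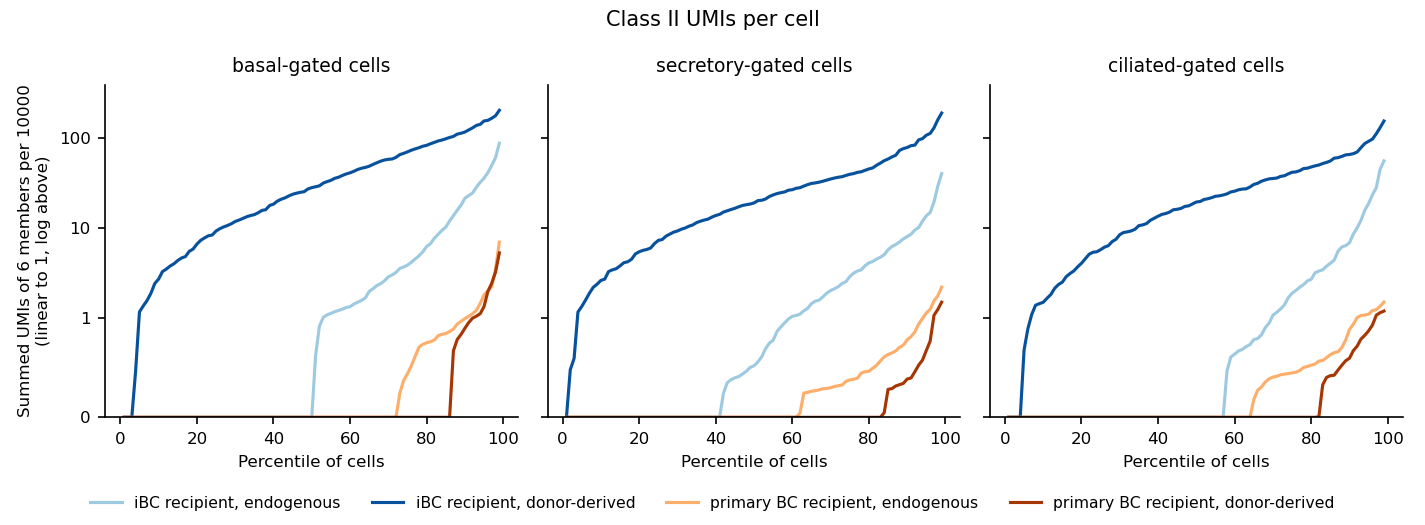
Summed UMIs of the 6 class II genes per 10000 UMIs of the cell (axis linear to 1 and logarithmic above) against the percentile of cells, for the 4 libraries and 3 classes. Donor-derived cells of the iBC trachea (dark blue) have medians of 28.3, 19.1 and 19.6, whereas host cells of the same trachea (light blue) stay at or near 0 over the lower part of the range and are high at the top.

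Among donor-derived basal-gated cells of the iBC trachea class II levels differed between the 2 main clusters. Cluster 3 had 3573 CPM of Cd74, 875 CPM of H2-Aa, 880 CPM of H2-Eb1 and 39.5 CPM of Ciita, and cluster 13, led by Krt13 and Upk3bl, had 704, 155, 383 and 3.504 CPM. The host clusters 6 and 7 had 453 and 293 CPM of Cd74, 95.2 and 58.5 CPM of H2-Aa, 79.8 and 58.5 CPM of H2-Eb1 and 7.09 and 2.11 CPM of Ciita. Cluster 13 thus stood nearer to the host clusters in H2-Aa than in H2-Eb1. H2-Ab1 had 845 CPM in cluster 3 and 127 CPM (112 to 142) in cluster 13, against 124 CPM (112 to 136) in host cluster 6, whose intervals overlap. H2-DMa and H2-DMb1 had 90.6 and 83.4 CPM in cluster 3 and 20.15 and 34.2 CPM in cluster 13, against 11.8 and 19.2 CPM in host cluster 6. The counts of members called higher in basal-gated cells are over both clusters. The clusters were formed on all variable genes, class II genes among them, so these values are a description. Of rarer donor-derived cells, the 61 hillock-gated cells had 808 CPM of Cd74 and 451 CPM of H2-Eb1, with a UMI of Cd74 in 70.5% and of H2-Eb1 in 95.1% of cells. The 18 microfold-gated cells, a class known for sampling antigen over lymphoid tissue, had 4496 CPM of Cd74, 919 CPM of H2-Aa and 964 CPM of H2-Eb1, and 16 of the 18 held at least 4 of the 6 genes. The 5 host microfold-gated cells of this trachea had 3446 CPM of Cd74, and the 4 host and 3 donor-derived ones of the primary BC trachea had 1158 and 342.5 CPM, with a UMI in each cell.

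Cells with a Ciita UMI were richer in the genes it switches on. Among donor-derived epithelial cells of the iBC trachea 175 had one and 1375 did not, with a median depth of 12275 and 11909 UMIs. Cells with and without Ciita had 5285 and 1700 CPM of Cd74, 1234 and 355 CPM of H2-Aa, 1266 and 306 CPM of H2-Ab1, 1151 and 465 CPM of H2-Eb1, and 150.5 and 36.2 CPM of H2-DMa. Among host epithelial cells 37 had a Ciita UMI and 1715 did not, and the former had 1086 CPM of Cd74 and 296 CPM of H2-Aa against 242 and 50.5 CPM in the others. Their median depth was 13902 UMIs against 9293. At these levels a cell without a Ciita UMI may still have its RNA. The epithelial classes were pooled in this split. In donor-derived cells a Ciita UMI was found in 21.0% of basal-gated cells of cluster 3 and 2.27% of those of cluster 13. It was found in 8.63% of secretory-gated cells of cluster 5 and 10.4% of ciliated-gated cells of cluster 12. Cells with and without Ciita thus differ in class and cluster, and the part of that was not tested.

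Donor-derived cells with and without a UMI of the reporter differed less in Cd74 than the libraries did. In basal-gated cells of the iBC trachea, Cd74 had 2374 CPM in the 281 cells with an EGFP UMI and 2730 CPM in the 334 without. Secretory-gated cells with and without the reporter had 2363 and 1977 CPM, ciliated-gated cells 1743 and 1569 CPM. The difference between cells with and without a reporter UMI was below 1.5-fold for Cd74 in each class. The counts of 7, 6 and 6 members called higher were the same with EGFP-positive donor-derived cells alone.

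Immune markers are given beside these values because immune cells carry class II RNA at high levels. Among host cells, the iBC trachea had 26 that were immune-gated, with 12599 CPM of Cd74 and 5237 CPM of 14 immune markers summed. Its donor-derived library had 1 such cell. The 14 markers, Ptprc among them, summed to 1.16, 0.675 and 0.575 CPM in donor-derived and 0.520, 1.03 and 0.940 CPM in host basal-, secretory- and ciliated-gated cells, with UMIs of 1 to 5 of the 14 markers and 0 of Ptprc. Per 100 Cd74 UMIs there were 41.6 immune marker UMIs in the immune-gated cells, 0.0310 to 0.0453 in donor-derived and 0.134 to 0.508 in host epithelial classes. Without any cell that held an immune marker UMI, the counts of 7, 6 and 6 members were the same. The 14 are those of 24 listed markers that at most 1% of cells of each basal-, secretory- and ciliated-gated class held. Cells with 3 or more of them were placed in the immune-gated class. The low values in epithelial classes of both tracheas, and these unchanged counts, were therefore partly set by that choice.

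In the primary BC trachea the immune-gated cells were more numerous, 71 in the host and 4 in the donor-derived library, and 70 of the 71 carried 3 or more macrophage and dendritic cell markers. They had 20788 CPM of Cd74 and 31.1 immune marker UMIs per 100 Cd74 UMIs. The host basal-, secretory- and ciliated-gated cells beside them had 10.0 (5.19 to 17.7), 13.7 (7.03 to 24.5) and 33.3 (9.48 to 96.5), from 13, 13 and 5 marker UMIs. The interval of the ciliated-gated cells includes the value of the immune-gated cells, and those of the other 2 classes lie below it. A Cd74 UMI was found in 13.3%, 20.2% and 7.54% of host and 6.36%, 8.59% and 3.09% of donor-derived cells of the 3 classes, at median depths of 10421.5 to 26077.5 UMIs. The part of free RNA in these shares was not tested.

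In basal-, secretory- and ciliated-gated cells of the primary BC trachea no member was measured at 20 CPM, so none could be called higher or lower. Ungated cells of this trachea had 25.4 CPM of Cd74 in donor-derived and 92.8 CPM in host cells, from UMIs in 11 of 293 and 18 of 182 cells. H2-Ab1 had 2.95 and 21.3 CPM there and H2-Eb1 1.36 and 21.7 CPM. The 10% of cells with the most class II UMIs held 100% and 95.9% of them. The 14 immune markers had 3 and 25 UMIs, and Ptprc 0 and 4. The part of immune RNA in these ungated values was not tested. Of all measured genes 0.209%, 0.47% and 0.377% were called higher in donor-derived basal-, secretory- and ciliated-gated cells, and 0.61%, 0.919% and 0.102% lower. The ratio of donor-derived to host cells was below 1 for 6, 7 and 7 of the 8 genes in basal-, secretory- and ciliated-gated cells, with intervals below 1 for 1, 4 and 1 of them. In ciliated-gated cells these include Ciita, with 0 against 1 UMI. The share of all genes below 1 is not given here, so these counts are a description. The median log2 ratios of all measured genes were 0.029, 0.017 and -0.031. The interval for Ctss lay above 1 in secretory-gated cells, at 1.62 (1.11 to 2.38), and in ciliated-gated cells, at 2.63 (1.11 to 6.69). Cd74 had ratios of 0.653 (0.508 to 0.839), 0.598 (0.411 to 0.859) and 0.649 (0.224 to 1.69). H2-Ab1 had 6 UMIs against 33 in secretory-gated cells, a ratio of 0.225 (0.0769 to 0.543), and in ciliated-gated cells 0 against 15, which makes it at least 3.60-fold lower. The host library of this mouse also held the more immune cells, and the part of that in these ratios was not tested. The comparisons within the 2 mice share no library.

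Host cells of the 2 tracheas also differed, though strain label and day differ with them. In basal-, secretory- and ciliated-gated cells 4, 3 and 4 members were measured, each only through the iBC side, and all were called higher there, as the minimum of 20 CPM left no other direction. Of all measured genes 1.79%, 1.58% and 2.85% were called higher. Cd74 was 21.35 (17.9 to 25.7), 16.2 (13.2 to 20.1) and 50.2 (30.3 to 90.2) times higher, H2-Aa 17.9 (12.5 to 26.5), 14.6 (9.08 to 24.9) and 21.7 (12.2 to 42.5) times. Ctss had ratios of 0.746 (0.116 to 3.835, from 3 and 5 UMIs), 0.750 (0.491 to 1.14) and 3.40 (1.59 to 8.11). Both host libraries also enter the donor comparisons above, so these comparisons share samples with them.

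Other genes of the pathway were taken from lists. Of 4 other class II genes in the files, H2-DMb2, the second DM beta copy, had 42.8 CPM among donor-derived and 3.64 CPM in host basal-gated cells of the iBC trachea, a ratio of 11.8 (7.55 to 19.3). H2-Ob, the beta chain of the DO molecule that inhibits DM in B cells, had 139 CPM among donor-derived and 10.8 CPM in host ciliated-gated cells, a ratio of 12.9 (9.504 to 17.8). In basal-gated cells H2-Ob had 0 UMIs in both libraries, and in secretory-gated cells 0 and 1. Its partner H2-Oa had 2.01 CPM among donor-derived and 3.52 CPM in host ciliated-gated cells, from 7 and 15 UMIs. H2-Ob was thus abundant in ciliated-gated cells where H2-Oa was not.

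Of 14 regulators of class II transcription, 8, 6 and 7 were measured in basal-, secretory- and ciliated-gated cells, and none of them was called higher on the donor-derived side of the iBC trachea. Over all measured genes 4.46%, 8.51% and 3.91% were called higher, and 3.49%, 3.69% and 4.86% lower. The median log2 ratios of the regulators were 0.11, 0.31 and -0.11, beside 0.13, 0.31 and 0.087 over all measured genes. Rfxap, a subunit of the RFX complex, had 42.2, 24.0 and 35.4 CPM against 36.9, 16.5 and 31.5 CPM. Nfyb, a subunit of NF-Y, was the only one called, lower in ciliated-gated cells, with 34.2 against 71.2 CPM. The coactivator Ciita was called higher in basal-gated cells, where none of the 8 measured regulators was called. With so few regulators measured, these counts lie near the shares over all genes, so no contrast with Ciita is drawn.

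**Figure D5:**
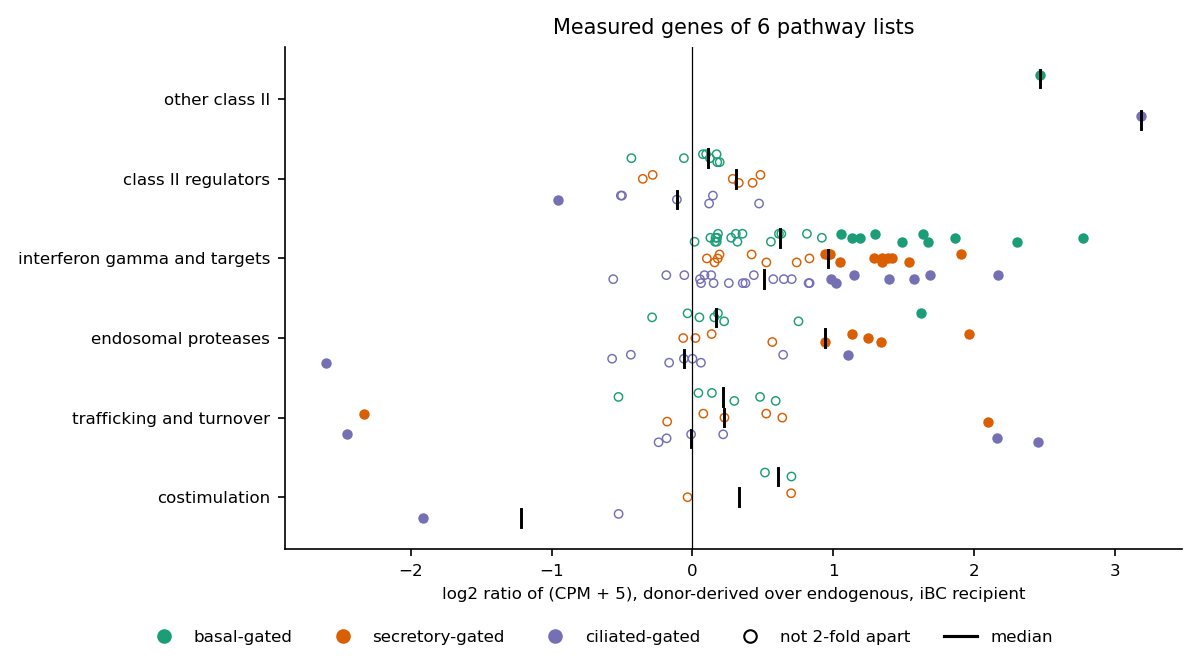
Log2 ratios (CPM plus a pseudocount of 5) between donor-derived and host cells of the iBC trachea for the measured genes of 6 pathway lists, by class; filled points were called at least 2-fold apart and black bars are medians. The interferon gamma list lies to the right of 0 in most genes, with medians of 0.62, 0.96 and 0.51, whereas the regulators of class II transcription have medians of 0.11, 0.31 and -0.11.

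Of 29 genes of interferon gamma signalling and its near targets, 10 of 26 measured were called higher in basal-gated, 12 of 20 in secretory-gated and 7 of 24 in ciliated-gated donor-derived cells, and none lower. Over all measured genes the shares called higher were 4.46%, 8.51% and 3.91%. The list's median log2 ratios were 0.62, 0.96 and 0.51, beside 0.13, 0.31 and 0.087 over all measured genes. The guanylate-binding protein gene Gbp2 had 63.3, 33.9 and 51.2 CPM against 16.5, 5.36 and 12.4 CPM, and the immunity-related GTPase gene Iigp1 242, 145 and 220 CPM against 45.0, 46.6 and 45.1 CPM. Gbp3, Igtp, Psmb9 and Tap1 were called higher in each of the 3 classes too. The chemokine gene Cxcl9 had 202 UMIs (29.2 CPM) in donor-derived and 0 in host basal-gated cells. The receptor genes Ifngr1 and Ifngr2 were not called in any class. Ifngr1 had 76.0 CPM among donor-derived and 59.9 CPM in host basal-gated cells. Several genes of this list had been seen to be higher in these data before the list was set, so its direction is no independent evidence.

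In the primary BC trachea none of that list was called higher in donor-derived cells, of 14, 16 and 17 measured. There 1, Iigp1 in secretory-gated cells, was called lower, with 8.61 against 27.4 CPM. Over all measured genes 0.209%, 0.47% and 0.377% were called higher in this comparison, and 0.61%, 0.919% and 0.102% lower. In host cells of the iBC trachea over those of the primary BC trachea, 4 of 18, 0 of 17 and 3 of 20 were called higher. Called lower were 0, 1 and 1. Of all measured genes 1.79%, 1.58% and 2.85% were called higher, and the share called lower is not given here. Cxcl10 had 36.2 CPM in host basal-gated cells of the iBC trachea and 0.279 CPM in those of the primary BC trachea.

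Of the endosomal proteases and their inhibitors, 1 of 8, 5 of 9 and 1 of 9 measured genes were called higher in donor-derived basal-, secretory- and ciliated-gated cells of the iBC trachea, beside 4.46%, 8.51% and 3.91% of all measured genes. The list's medians were 0.17, 0.94 and -0.06, so that in basal- and ciliated-gated cells it lay near all genes. Ctsc, which activates serine proteases, had 150.5 CPM against 45.6 CPM in basal- and 89.97 against 19.3 CPM in secretory-gated cells. Ctsd, an aspartic protease of the lysosome, had 193 against 78.2 CPM in secretory- and 580 against 266 CPM in ciliated-gated cells. Ctsl, which trims the invariant chain in thymic epithelium, was not called, with 410 against 420 CPM in basal-gated cells. Ctsk was called lower in ciliated-gated cells, with 4.89 against 55.2 CPM, and was also lower in donor-derived ciliated-gated cells of the primary BC trachea, with 36.2 against 78.0 CPM.

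Of the genes of class II trafficking and turnover, 0 of 6, 1 of 7 and 2 of 7 measured were called higher and 0, 1 and 1 lower in the 3 classes, where 4.46%, 8.51% and 3.91% of all measured genes were higher and 3.49%, 3.69% and 4.86% lower. With counts this small and medians of 0.22, 0.23 and -0.0093, the list lay near all genes. Cd81, a tetraspanin, was called higher in secretory- and ciliated-gated donor-derived cells of the iBC trachea, with 151 against 31.3 CPM and 70.2 against 8.69 CPM. Unc93b1, which carries endosomal Toll-like receptors, was called lower in the same classes, with 1.52 against 27.9 CPM and 11.8 against 86.9 CPM. Costimulatory and checkpoint ligands, which set how a T cell responds to presented antigen, were sparse. Of 12 listed, 2 were measured in each class, none was called higher and Vtcn1 was called lower in ciliated-gated cells, with 5.75 against 35.5 CPM. Cd86 had 0 UMIs in each of the 3 donor-derived classes. Cd80 had 4 UMIs in donor-derived and 30 in host basal-gated cells, a ratio of 0.111 (0.0285 to 0.316). The coinhibitory ligand gene Cd274 had 3.04 and 1.91 CPM there.

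The genes most like the set over the classes were named by their correlation with the mean of the 6 genes over 19 sums of a class in a library, among 9704 genes. They were Psmb9 (r = 0.969), Hist2h2bb (0.963), Creg1 (0.939), Ciita (0.93), Zfp992 (0.923), B2m (0.915), Psmb8 (0.9), Gbp3 (0.892), St6gal1 (0.884) and Arhgap31 (0.883). Ciita is a member that the mean leaves out, and the other member left out, Ctss, had r = 0.64. Psmb9, a subunit of the immunoproteasome, had 94.98, 76.6 and 139 CPM in donor-derived basal-, secretory- and ciliated-gated cells of the iBC trachea, 35.7, 26.1 and 43.5 CPM in host ones, and 15.2 to 23.9 CPM in the primary BC trachea. B2m, the light chain of class I molecules, had 1685, 1734 and 2301 CPM, then 735, 582 and 944 CPM, and 295 to 384 CPM. Both genes were highest in donor-derived cells of the iBC trachea and next highest in its host cells in each class. The 19 sums come from 4 libraries, and 1 of them is of immune-gated cells, where the 6 genes are highest. Hist2h2bb, Zfp992 and St6gal1 reached 20 CPM only in that sum, with 20.3, 21.4 and 36.4 CPM, and entered the list through it alone. In the other sums they had at most 9.55, 10.1 and 18.7 CPM. They share depth and library, and the correlations are a description.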

How the data were processed

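Gene expression was measured with 10x Chromium 3' counting of cells from 2 tracheas in 4 libraries. The deposited values are UMI counts per gene and barcode, made by the authors. Cell Ranger, STARsolo, Seurat and the build GRCm38 are named in the submitters' processing notes, and which tool made the counts and its version are not given in the sources used here. Barcodes with under 500 genes or over 20% mitochondrial UMIs were removed, and doublets were called per library with Scrublet in scanpy 1.11.5 (0.533% to 2.86% of barcodes).

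A cell entered a class when the mean log2 of 1 plus counts per 10000 of its markers, divided by the 99th percentile, was at least 0.4 and 0.1 above the next class. Rarer classes needed 3 specific markers. A cell whose Leiden cluster (20 clusters) was led by another class's markers was left out of its class (165 cells). Within each class, 0 to 63 cells per library lay within 0.05 of a limit, and 75 to 190 of the ungated cells did.

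Counts of a class were added up in each library and scaled to CPM, and log2 ratios used a pseudocount of 5. Ratio intervals are exact and conditional on the sum of both counts. The ratio code was tested on simulated data.

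All 8 members are named, and of each pathway list the genes 2-fold apart in 2 or more classes with at most 4 others per list. One gene that this rule names is not reported here. Nfyb, Rfxap, H2-DMb2, H2-Ob, H2-Oa, Cd80, Cd86, Cd274, Ifngr1, Ifngr2, Ctsk, Ctsl, Vtcn1, Cxcl9 and Cxcl10 were chosen after their values were seen. The members and lists were chosen with earlier results of these data known. A control trachea named in the protocols was not analysed here.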

Additional observations from a re-analysis of the deposited data

Results flagged for a closer look

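The 8 genes were looked at in each of the 3 gated classes. For 7 pairs of a gene and a class, the log2 ratio of donor-derived to endogenous cells had opposite signs in the 2 mice, with both intervals of the ratio clear of 1. The share of all genes that meet this rule is not given here, so the count is a description. Each mouse had 1 library of each kind, so the difference between them was not tested. The iBC trachea is given first and the primary BC trachea second. Cd74 had 2.71 and -0.46 in basal-gated cells, and 3.37 and -0.49 in secretory-gated cells. In secretory-gated cells H2-Aa had 3.06 and -0.39, H2-Ab1 2.77 and -0.65, and H2-Eb1 4.33 and -0.55. In ciliated-gated cells H2-Ab1 had 2.93 and -0.80. Ctss ran the other way in ciliated-gated cells, with -0.84 and 0.58. Levels in the primary BC trachea were under 20 CPM in all 7 pairs. The value of H2-Eb1 there rests on 1 and 19 UMIs.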

How the results depend on the processing

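The counts of members called higher in the iBC trachea (7, 6 and 6) were recomputed with TMM scaling, relative to the median of all genes, as a mean over cells, with doublets kept, without cells holding an immune UMI, with a wider gate margin of 0.25, with classes from clusters, with thinned cells and, as an alternative chosen after seeing the data, in EGFP-positive donor cells only. They stayed at 7, 6 and 6, and were 8, 8 and 7 with no minimum CPM. With the minimum required in host cells, also chosen after seeing the data, they were 4, 3 and 4, since fewer members enter. In the primary BC trachea the counts were 0 under each of these, except 1 in ciliated-gated cells with no minimum CPM, which is Ctss, since that setting bars no gene. No log2 ratio that was called changed sign. Among ratios with intervals clear of 1, that of H2-Eb1 in secretory-gated cells of the primary BC trachea, from 1 and 19 UMIs, went from -0.55 to 0.26 in thinned cells, which hold fewer UMIs. Of the recomputed log2 ratios 460 stayed within their counting interval and 68 moved beyond it, and of the shares of cells 443 stayed and 97 moved, 95 of them under thinning. The log2 ratio of H2-DMb1 in secretory-gated cells ran from 0.78 to 1.53, and that of H2-DMb1 in ciliated-gated cells of the primary BC trachea, which was not called, from -0.57 to 0.7. No paired analysis was possible because each group has 1 library. Depth limits genes with few UMIs such as Ciita and Ctss, and 1 library per group leaves the spread between animals unknown.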
